A study of Mus musculus with 8 samples.

Results

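The microRNA genes that lie between Dlk1 and Dio3 on mouse chromosome 12 were described in epithelial cells of fetal lungs with and without the Hippo kinases Mst1 and Mst2. They were chosen by position: a gene was taken if its symbol starts with Mir and a digit, if it lies between Dlk1 and Dio3 in the RefSeq gene table of GRCm38.p6, and if a probe set of the array carries that symbol alone. This gave 40 of the 19938 genes measured. Where a gene had several probe sets, the one with the highest mean over the 8 arrays was to be used, which was needed for 0 of the 40. The rule itself reads position and mean level only, but the interval was picked because its microRNA genes were already known to be lower in these same knockout arrays. Their differences are therefore a description, and the p-values printed for them are no independent support for a fall of the group. RefSeq places 61 microRNA genes there in all. Of these, 2 share their probe set with a long transcript (Mir433 and Mir410), and 19 were not analysed here.

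The arrays measured total RNA of Epcam(+) cells, which were separated with magnetic microbeads from dissociated lungs at E18.5, late in gestation. There were 4 knockout arrays, labelled Mst1/2 CKO, in which both kinases had been conditionally deleted by ShhCre, a Cre recombinase made where Sonic hedgehog is expressed and so active in epithelial progenitors of the lung. The 4 control arrays are labelled Control, with no further genotype in the sources used here. Each array is called a biological replicate, but whether it stands for 1 embryo, a pool or littermates is not given, so p-values measure the spread between these arrays.

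Values are log2 expression as deposited, and each difference is knockout minus control, so that −1 is a halving. The p-values come from limma's moderated test. They were corrected for all 19938 genes together after Benjamini and Hochberg, and a gene was called at 0.05 or below. The array medians lay between 7.24 and 7.30 in knockout arrays and between 7.21 and 7.29 in control arrays. Stk4, which encodes Mst1, fell by 0.30 (SE 0.076, adjusted p = 0.0188), and its probe set may lie outside the deleted part. Its call was lost with the mesenchymal covariate described further on (adjusted p = 0.251). The transcript of Mst2, the other deleted kinase, is not described here. Epcam, on which the cells were selected, averaged 10.07 ± 0.17 in knockout and 10.06 ± 0.15 in control arrays (SD, n = 4 each). The number of arrays limits the precision. In such bulk RNA, fewer cells of a type and less RNA per cell cannot be told apart.

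The interval is imprinted. On the chromosome from the mother, a set of non-coding RNAs is transcribed in a single direction: Meg3, the antisense RNA of Rtl1, the snoRNA host Rian and the microRNA host Mirg. On the chromosome from the father, the protein-coding genes Dlk1, Rtl1 and Dio3 are expressed instead. The microRNAs are cut as hairpins from the long maternal transcripts, by Drosha in the nucleus and Dicer in the cytoplasm, and are loaded on Argonaute proteins. Bases 2 to 8 of a mature microRNA, the seed, pair with messenger RNAs that are then repressed. In cultured fetal rat lungs, an excess of miR-127 is known to disturb branching. In mice, microRNAs antisense to Rtl1 direct cleavage of the Rtl1 messenger, and loss of the cluster from miR-379 to miR-410 impairs metabolic adaptation of the newborn. The probe sets lie on hairpin genes, and the sources used here do not say how far the labelling reaches mature microRNAs as against precursors or host transcripts, so each value is that of the gene's RNA and not of a mature form.

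The mature sequences of 40 of 40 genes were found in RefSeq's microRNA table (GRCm38.p6), 76 in all, with 74 different seeds. All are on the plus strand. Those of the 3 genes with the largest falls come first, then the gene with the smallest p, miR-127, and the 2 genes that moved least in the cluster downstream of Rian. Capitals mark the seed.
mmu-miR-369-3p (chr12:109743466-109743486): aAUAAUACaugguugaucuuu
mmu-miR-377-3p (chr12:109740553-109740574): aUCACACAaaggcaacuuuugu
mmu-miR-379-5p (chr12:109709065-109709085): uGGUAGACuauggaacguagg
mmu-miR-409-3p (chr12:109743204-109743225): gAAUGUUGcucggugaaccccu
mmu-miR-127-3p (chr12:109592888-109592909): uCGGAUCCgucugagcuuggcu
mmu-miR-666-5p (chr12:109717103-109717124): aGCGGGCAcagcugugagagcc
mmu-miR-667-3p (chr12:109720061-109720083): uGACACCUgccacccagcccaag

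Among these 76 sequences 2 seeds are shared between genes. Arms of these genes that the table does not hold were not compared. One joins miR-379-3p and miR-411-3p, which lie next to each other, and the other joins miR-376c-5p and miR-376b-5p, which are also neighbours. Another 17 pairs of seeds differ in 1 base, among them those of miR-381-3p and miR-300-3p, which are shown as well.
mmu-miR-379-3p (chr12:109709102-109709123): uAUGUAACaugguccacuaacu
mmu-miR-411-3p (chr12:109710225-109710246): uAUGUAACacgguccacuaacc
mmu-miR-376c-5p (chr12:109722733-109722754): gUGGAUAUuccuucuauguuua
mmu-miR-376b-5p (chr12:109723471-109723492): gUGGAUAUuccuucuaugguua
mmu-miR-381-3p (chr12:109726870-109726891): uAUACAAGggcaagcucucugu
mmu-miR-300-3p (chr12:109724363-109724384): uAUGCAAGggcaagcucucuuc

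The microRNA genes of the interval were lower in knockout cells. All 40 differences were negative and 39 genes fell in limma's test, where 10.2% of all genes did. None of the 40 (0 genes) was called higher, against 8.6% of all genes. In 38 of them every knockout value lay below every control value, which held for 11.9% of all genes. Nothing is read from these shares, since the contrast led to the choice of the interval. The median difference was −1.45, a 2.73-fold lower level, and the differences lay between −2.42 and −0.12. Over all genes the median was −0.02. At least a halving was seen in 31 genes, and 7 were lower by 4-fold or more. Of the 265 genes in the whole table that were called and at least halved, 31 were these microRNA genes, and they held 19 of the 100 largest falls.

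**Figure D1:**
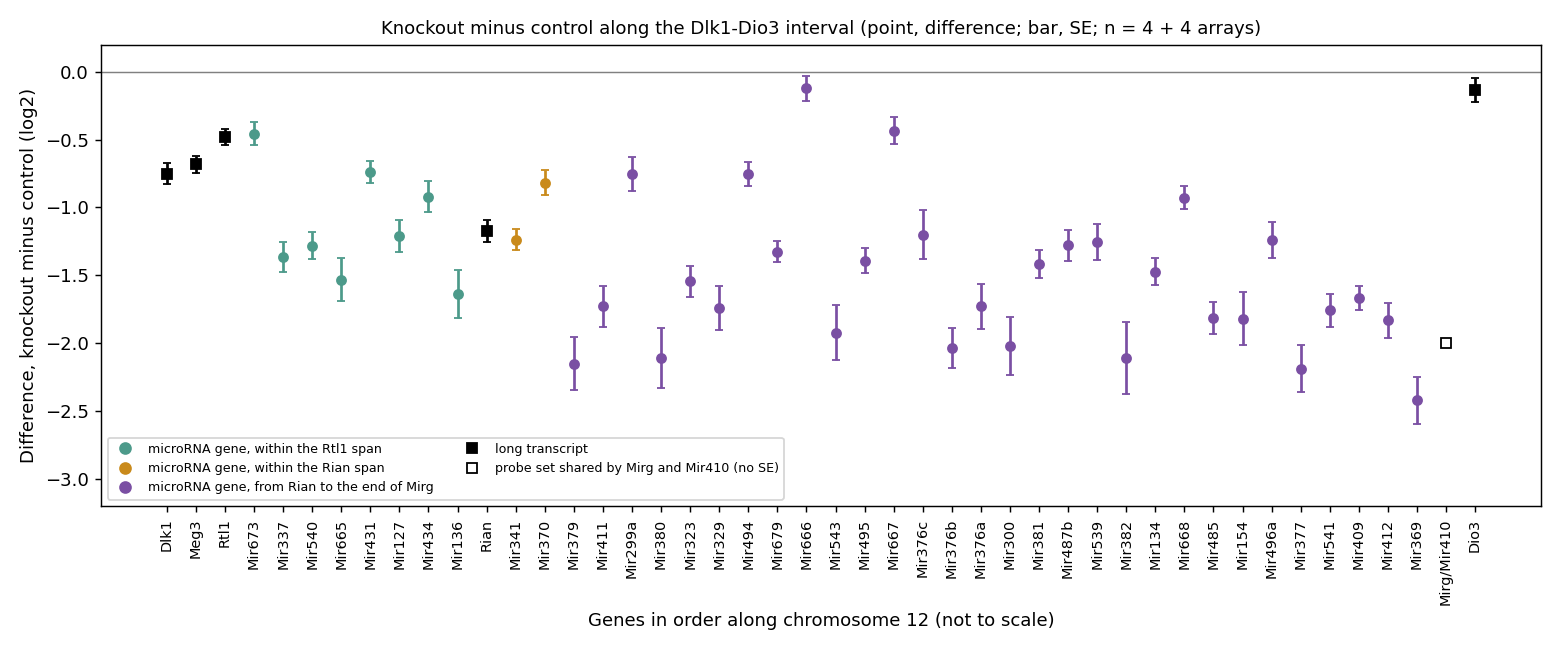
Difference between knockout and control arrays (log2, y axis) for each microRNA gene (circles) and for the long transcripts (squares), in order along chromosome 12, with the SE of the difference as bars (n = 4 arrays per group). All points lie below 0, with Mir666 (−0.12) and Dio3 (−0.14) nearest to it and Mir369 (−2.42) farthest from it.

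Ordered by position, the genes fall into 3 runs. The first run, from Mir673 to Mir136, holds 8 genes within the annotated span of Rtl1, on the strand opposite to it. The second holds Mir341 and Mir370, within the span of the snoRNA host Rian. The third, from Mir379 to Mir369, holds 30 genes between the end of Rian and the end of the microRNA host Mirg.

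In the Rtl1 run all 8 genes fell, with a median difference of −1.25 and no overlap between the groups. Mir127 read 7.86, 7.62, 7.49 and 7.42 in knockout arrays, against 9.10, 8.75, 8.64 and 8.75 in control arrays (difference −1.21, SE 0.12, adjusted p = 5.47e-05). Mir665 read 9.47, 9.34, 8.75 and 9.29 in knockout arrays, against 10.84, 10.49, 11.06 and 10.60 in control arrays (−1.53, SE 0.16). In both genes the knockout arrays all lay below the lowest control array, and knockout replicate 3 was the lowest for Mir665.

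Mir136 differed by −1.64 (SE 0.18), the most in this run, followed by Mir665, Mir337 (−1.37, SE 0.11) and Mir540 (−1.28, SE 0.10). Smaller falls were those of Mir434 (−0.92, SE 0.11), Mir431 (−0.74, SE 0.081) and Mir673 (−0.46, SE 0.084). Mir673, the first in the interval, read 7.59, 7.43, 7.47 and 7.70 in knockout arrays, against 8.12, 7.84, 8.11 and 7.93 in control arrays (adjusted p = 0.00323). Its groups came within about the spread of a group of each other but did not overlap. The probe set shared by Mir433 and the non-coding 6430411K18Rik, in the same run, averaged 7.74 ± 0.22 in knockout and 8.95 ± 0.061 in control arrays (SD, n = 4 each), a difference of −1.22.

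In the Rian run, Mir341 read 10.15, 9.87, 9.97 and 10.01 in knockout arrays, against 11.28, 11.08, 11.36 and 11.22 in control arrays (−1.24, SE 0.080, adjusted p = 8.80e-06). Mir370, whose product is known to act on the fatty acid oxidation gene CPT1A in human liver cells, differed by −0.82 (SE 0.091, adjusted p = 1.26e-04). Both genes were without overlap between the groups, and their spread within a group was small beside the difference.

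In the run from Rian to the end of Mirg, 29 of 30 genes fell, 28 of them without overlap, with a median difference of −1.70. The largest fall was that of Mir369, the last gene of the run. It read 7.59, 6.86, 6.72 and 6.64 in knockout arrays, against 9.36, 9.27, 9.33 and 9.54 in control arrays, a 5.36-fold lower level (−2.42, SE 0.18, adjusted p = 1.40e-05). Mir377 read 8.53, 8.10, 7.66 and 7.66 in knockout arrays, against 10.14, 10.05, 10.32 and 10.19 in control arrays (−2.19, SE 0.17). Mir379, the first gene of the run, read 5.83, 5.24, 5.21 and 4.94 in knockout arrays, against 7.22, 7.22, 7.45 and 7.94 in control arrays (−2.15, SE 0.20). For all 3 the highest knockout value was that of knockout replicate 1, and it still lay more than 1 log2 unit below the lowest control value.

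The other genes lower by 4-fold or more were Mir380 (−2.11, SE 0.22), Mir382 (−2.11, SE 0.27), Mir376b (−2.04, SE 0.15) and Mir300 (−2.02, SE 0.21). Mir382 had the widest spread of the 40 among knockout arrays, at 7.90 ± 0.68, against 10.01 ± 0.15 in control arrays (SD, n = 4 each). Its knockout values lay between 7.05 and 8.65, all below the lowest control value of 9.82. Between −1.5 and −2 lay Mir543 (−1.93), Mir412 (−1.83), Mir154 (−1.82), Mir485 (−1.81), Mir541 (−1.76), Mir329 (−1.74), Mir411 (−1.73), Mir376a (−1.73), Mir409 (−1.67) and Mir323 (−1.55). The product of Mir154 is known to promote proliferation of human lung fibroblasts.

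The smallest p among the 40 was that of Mir409, with 6.77, 6.48, 6.55 and 6.39 in knockout arrays, against 8.16, 8.10, 8.28 and 8.32 in control arrays (SE 0.087, adjusted p = 3.62e-06). Mir679 followed, with 8.53, 8.34, 8.27 and 8.31 in knockout arrays, against 9.76, 9.53, 9.67 and 9.79 in control arrays (−1.33, SE 0.079, adjusted p = 7.12e-06). Mir495 had 4.31, 4.22, 4.31 and 4.03 in knockout arrays, against 5.56, 5.75, 5.71 and 5.42 in control arrays (−1.39, SE 0.090, adjusted p = 8.81e-06). In these 3 genes the distance between the groups was several times the range within either group.

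Mir485 had 8.33, 7.99, 7.66 and 7.98 in knockout arrays, against 9.69, 9.77, 9.93 and 9.83 in control arrays (SE 0.12, adjusted p = 9.71e-06). Mir134, whose product limits the growth of dendritic spines in rat neurons through Limk1, had 8.89, 8.61, 8.47 and 8.39 in knockout arrays, against 10.09, 9.98, 10.12 and 10.06 in control arrays (−1.47, SE 0.098, adjusted p = 9.72e-06). In both the 4 control arrays were nearly level and the knockout arrays were spread more widely below them. Further falls were those of Mir381 (−1.42), Mir487b (−1.28), Mir539 (−1.26), Mir496a (−1.24), Mir376c (−1.20), Mir668 (−0.93), Mir494 (−0.76) and Mir299a (−0.75).

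Both exceptions in this run sat between neighbours that fell. Mir666 had 7.98, 8.05, 8.14 and 8.27 in knockout arrays, against 8.38, 8.004, 8.23 and 8.32 in control arrays, and did not pass (−0.12, SE 0.092, adjusted p = 0.446). Its groups overlapped over most of their range, while Mir679 before it and Mir543 after it were without overlap. Mir667 had 8.90, 9.05, 8.89 and 9.21 in knockout arrays, against 9.51, 9.20, 9.57 and 9.52 in control arrays, and passed (−0.43, SE 0.098, adjusted p = 0.009998). Knockout replicate 4 lay just above control replicate 2 there, so the groups overlapped slightly. Mir495 and Mir376c on either side differed by over 1 log2 unit. The hairpin of Mir667 had the highest GC content of the 39 hairpins in the table, 62.0%. Close to it were those of Mir673 (61.5%), Mir540 (61.2%), Mir134 (60.6%) and Mir431 (60.4%). These genes differed by −0.46, −1.28, −1.47 and −0.74, in that order. Whether GC content bears on the size of a difference was not tested.

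**Figure D2:**
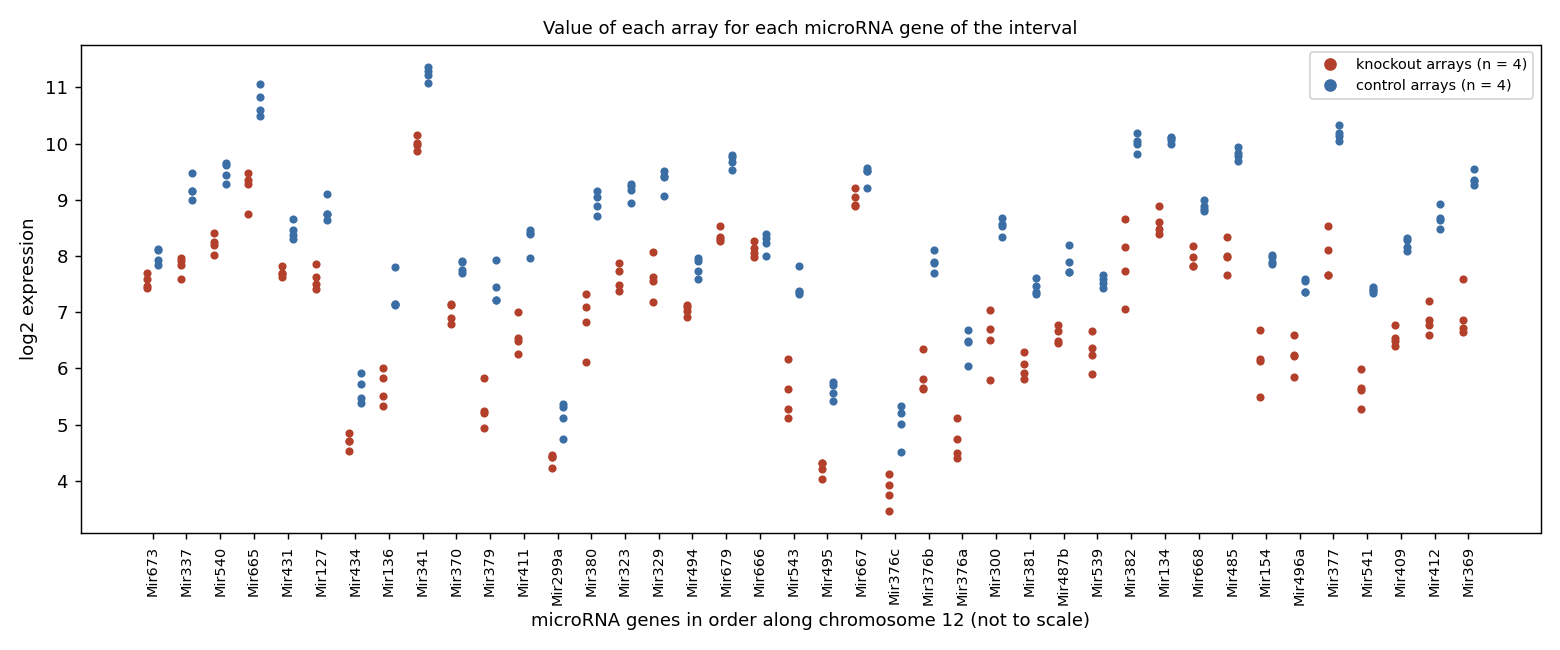
Value of each array (log2 expression, y axis) for each microRNA gene in order along chromosome 12, with the 4 knockout arrays left of the 4 control arrays. The colours separate fully in 38 of 40 genes and overlap in Mir666 and Mir667.

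Genes that share a seed fell by different amounts. Mir411 had 7.003, 6.49, 6.54 and 6.26 in knockout arrays, against 8.40, 7.97, 8.39 and 8.47 in control arrays (−1.73, SE 0.15), beside −2.15 for Mir379. Mir376b had 6.35, 5.81, 5.63 and 5.66 in knockout arrays, against 7.70, 7.88, 7.90 and 8.11 in control arrays. Mir376c had 4.12, 3.75, 3.93 and 3.47 in knockout arrays, against 4.51, 5.34, 5.02 and 5.21 in control arrays, so that the pair differed by −2.04 and −1.20. Whether those sizes differ was not tested. Both seed groups were lower in knockout arrays without overlap, as were most of their neighbours that share no seed. The hairpins of Mir376b and Mir376c hold a common run of 31 bases, longer than a 25-base probe of such arrays, so their values may not be separate and are uncertain. In the other 37 hairpins compared, the longest run shared with another hairpin of the set was under 25 bases. Mir376a, Mir376c, Mir495, Mir434 and Mir299a averaged under 5 in knockout arrays, where the lowest value in the table was 2.89. Whether they were at background there is not known, and their falls may be lower bounds.

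Base composition and brightness went together across the probe sets. Across the 39 genes with a hairpin in the table, GC content and mean level had r = 0.65, so levels of different genes were not compared. GC content and the difference had r = 0.42 across all 39, and r = 0.20 across the 29 in the run from Rian to the end of Mirg. The level in control arrays and the difference had r = −0.21 across the 40 genes. These values describe genes that share arrays and probe chemistry and are not independent, and no test was made of them.

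Of the long transcripts of the interval, Dlk1, Meg3, Rtl1 and Rian fell as well, each by less than the median of the 40 microRNA genes, and Dio3 did not pass. Meg3, the maternal RNA at the head of the interval, had 11.96, 11.86, 12.02 and 11.94 in knockout arrays, against 12.59, 12.71, 12.67 and 12.54 in control arrays. It averaged 11.94 ± 0.066 in knockout and 12.63 ± 0.076 in control arrays (SD, n = 4 each; −0.68, SE 0.061, adjusted p = 3.93e-05). Rian had 9.29, 9.08, 9.22 and 9.01 in knockout arrays, against 10.41, 10.21, 10.26 and 10.43 in control arrays, and averaged 9.15 ± 0.13 in knockout and 10.33 ± 0.11 in control arrays (−1.18, SE 0.079, adjusted p = 9.72e-06). The probe set that Mirg shares with Mir410, at the far end, averaged 8.99 ± 0.43 in knockout and 10.98 ± 0.14 in control arrays, a difference of −1.997. From Meg3 through Rian to the probe set of Mirg and Mir410 the sizes grew along the chromosome, which was not tested. Between Meg3 and Rian, Rtl1 (−0.48) and the probe set of Mir433 and 6430411K18Rik (−1.22) did not keep to this order. In control arrays Meg3 and Dlk1 were both within 2 log2 units of the highest value of the table (13.95), and whether their probe sets were near saturation is not known.

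The paternal genes did not share a size. Dlk1, which encodes a membrane protein related to Notch ligands, differed by −0.75 (SE 0.077, adjusted p = 7.75e-05), at 12.51 ± 0.15 in knockout and 13.27 ± 0.054 in control arrays. Rtl1, a gene derived from a retrotransposon, differed by −0.48 (SE 0.061, adjusted p = 2.97e-04). Which strand its probe set reads is not given in the sources used here, so its RNA and that of the antisense host of the microRNAs cannot be told apart. Dio3, the deiodinase that inactivates thyroid hormone, did not pass (−0.14, SE 0.087, adjusted p = 0.352). It was dim, at 5.61 ± 0.079 in knockout and 5.74 ± 0.17 in control arrays, and whether it was at background is not known. Of the 15 measured genes in a list of long transcripts of the interval and its flanks, 4 were lower (Dlk1, Meg3, Rtl1 and Rian) and 1 was higher by the test, while 10 were not called. The median of the list was 0.03. The one that rose was Dync1h1, a dynein heavy chain gene outside the interval (0.24, SE 0.055). Its call was lost when knockout replicates 1 and 4 were both left out, and in a fit that took the mean of mesenchymal markers as a covariate.

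Beyond the ends of the interval, the nearest measured microRNA genes of chromosome 12 did not pass. They were taken without a limit on distance. Mir345, before Dlk1, read 7.52, 7.67, 7.64 and 7.73 in knockout arrays, against 7.87, 7.58, 7.89 and 7.77 in control arrays (−0.14, SE 0.079). Mir203, after Dio3, read 4.29, 4.69, 4.18 and 4.39 in knockout arrays, against 4.38, 4.10, 4.27 and 4.02 in control arrays (0.20, SE 0.11). The groups overlapped in both genes. Mir203 averaged 4.39 in knockout and 4.19 in control arrays. Whether it was at background, where a fall may not show, is not known.

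The difference between the runs can be written array by array, which restates the same values and adds no support. The mean of the 30 genes from Rian to the end of Mirg minus the mean of the 8 genes of the Rtl1 run was −0.50, −0.70, −0.57 and −0.92 in knockout arrays, against −0.39, −0.23, −0.28 and −0.20 in control arrays. The knockout values all lay below the control values, so that the downstream run was lower relative to the upstream run in knockout cells. No p is given for a score over these genes. Hairpins of the Rtl1 run were mostly richer in GC than those of the downstream run. Whether GC content has a part in the gap was not tested.

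Among short RNAs outside the interval no such fall as a group was seen. Of 247 microRNA genes elsewhere in the genome, 17 fell (6.9%) and 3 rose (1.2%), where 10.2% and 8.6% of all genes did. Their median difference was −0.0057, and 0 were at least halved. They were dimmer, with a median level of 5.884 against 7.645 for the 40 genes. How many of them were at background, where a fall may not show, is not known. Of the 56 microRNA genes that fell in all, 39 were those of the interval. The 54 snoRNA genes named Snord, Snora or Scarna went the other way: 0 fell and 24 rose (44.4%), with a median of 0.34. Both measured snoRNA genes of the interval itself, DQ267101 and DQ267102 in the Rian array of snoRNAs, fell (−1.11, SE 0.12, and −1.07, SE 0.11), as their microRNA neighbours did.

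**Figure D3:**
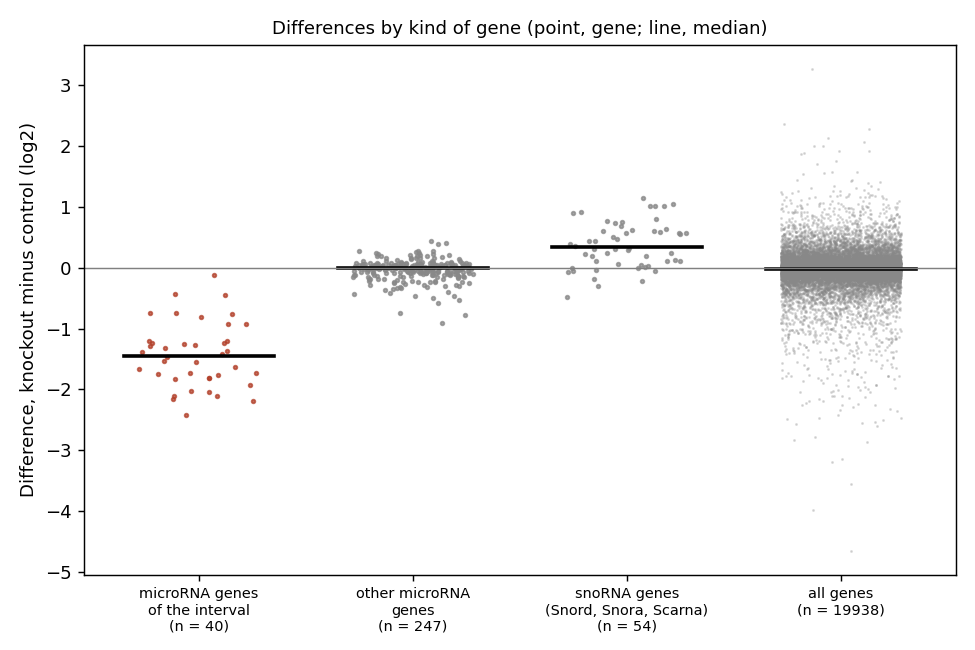
Difference between knockout and control arrays (log2, y axis) of each of 40 microRNA genes of the interval, 247 other microRNA genes, 54 snoRNA genes and all 19938 genes, with the median of each as a line. The medians are −1.45, −0.0057, 0.34 and −0.02.

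The start of Meg3 is the annotated start of maternal transcription in the interval, and that of Rian lies at the second run. In the 300 bases from 250 before to 50 after each start, as RefSeq gives them for GRCm38.p6, 2 motifs were looked for after the results were known. These were GGAATG on either strand (CATTCC), the core bound by the TEAD partners of Yap, and TGACGTCA, the cyclic AMP response element, which reads the same on both strands and does not overlap the other. Both windows are on the plus strand, and capitals mark the matches.
Meg3 (chr12:109540746-109541045): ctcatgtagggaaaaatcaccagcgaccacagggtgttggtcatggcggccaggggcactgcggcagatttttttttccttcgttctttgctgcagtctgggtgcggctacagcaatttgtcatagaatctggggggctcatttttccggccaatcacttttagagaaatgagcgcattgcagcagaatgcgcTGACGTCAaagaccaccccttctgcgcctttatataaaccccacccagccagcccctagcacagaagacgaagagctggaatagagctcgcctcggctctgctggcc
Rian (chr12:109603695-109603994): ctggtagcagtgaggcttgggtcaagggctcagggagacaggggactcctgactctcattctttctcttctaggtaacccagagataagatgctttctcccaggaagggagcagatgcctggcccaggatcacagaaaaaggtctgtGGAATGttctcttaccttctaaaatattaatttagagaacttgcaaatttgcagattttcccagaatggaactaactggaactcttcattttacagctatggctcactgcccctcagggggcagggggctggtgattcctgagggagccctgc

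The window of Meg3 held 1 TGACGTCA, which 1.79% of 32851 promoter windows of the same length hold, and 0 GGAATG or CATTCC. That of Rian held 1 GGAATG, and 14.7% of windows hold that motif on either strand. The windows of Mirg, Dlk1, Dio3 and the second annotated start of Meg3 held neither. A match describes the letters only, and no binding was measured.

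Of 21 listed genes that make and use microRNAs, 2 were called higher and 0 lower, leaving 19, where 8.6% of all genes were called higher and 10.2% lower. Their median difference was 0.04, against −0.02 over all genes. Ago4, an Argonaute protein, rose 1.65-fold (0.72, SE 0.068, adjusted p = 5.04e-05), at 9.21 ± 0.088 in knockout and 8.49 ± 0.091 in control arrays. Ran, the GTPase that drives export of hairpins by exportin 5, passed (0.26, SE 0.073, adjusted p = 0.0278), but its call was lost in 11 of 17 alternative fits. Srrt, which brings capped transcripts to the nuclear cutter, did not pass (0.20, SE 0.070, adjusted p = 0.0780). The nuclear cutter Drosha (0.03, SE 0.056), its partner Dgcr8 (0.05, SE 0.061) and the cytoplasmic cutter Dicer1 (−0.06, SE 0.058) did not pass. Nor did Ddx17 (−0.05, SE 0.051), a helicase of the Drosha complex that nuclear YAP is known to bind in human cells. These last 4 were named after their values were seen.

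Genes that keep imprints and DNA methylation moved both ways. Of 15 listed genes, 3 were called higher and 2 lower, leaving 10, beside the same shares of all genes, and their median difference was 0.03. Zfp57, the zinc finger protein that protects methylation at imprinting control regions, rose 1.47-fold (0.55, SE 0.071, adjusted p = 3.35e-04). The maintenance genes Dnmt1 and Uhrf1 were higher too (0.35, SE 0.066, and 0.43, SE 0.085). Both are known to rise in dividing cells, and whether that bears on these values was not tested. In the fit with the mesenchymal covariate, Dnmt1 missed the threshold (adjusted p = 0.0519). Of the demethylating enzymes, Tet1 fell by 0.43 (SE 0.073, adjusted p = 0.00181) and Tet2 by 0.21 (SE 0.060, adjusted p = 0.0337), the call of Tet2 being lost in 11 of 17 alternative fits. Uhrf1 and Tet2 were named after their values were seen. Methylation was not measured.

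Array by array, the 40 genes kept the groups apart. Their mean was 7.16, 6.88, 6.78 and 6.64 in knockout replicates 1 to 4, against 8.30, 8.20, 8.31 and 8.40 in control replicates 1 to 4. Knockout replicate 1 had the highest knockout value in 34 of the 40 genes and knockout replicate 4 the lowest in 25. The SD over the knockout arrays was 0.22 and that over the control arrays 0.081. Knockout replicate 1 read 10.31 for Xist, the RNA of the inactive X chromosome, while the other arrays read either 5.85 to 6.33 or 12.30 to 12.43. Without it the median difference was −1.54.

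Some markers of other cell types differed between the groups too, where 8.6% of all genes were called higher and 10.2% lower. The mean of 20 mesenchymal markers was 8.13, 8.19, 8.58 and 8.64 in knockout arrays, against 7.90, 7.97, 8.02 and 8.30 in control arrays, and 3 of them rose and 0 fell. Of the endothelial markers 4 of 10 rose and 0 fell (mean 9.33 to 9.55 in knockout and 9.03 to 9.37 in control arrays), and of the mesothelial markers 2 of 6 rose and 0 fell (9.52 to 9.90 and 9.06 to 9.61). The mesothelial markers that rose were Msln (0.75) and Krt19 (0.62), and Krt19 is also among the epithelial markers. The mesenchymal, endothelial and mesothelial means were thus higher on average in knockout arrays, where the microRNA genes were lower, though the groups overlapped in each. With the mesenchymal mean as a covariate the median difference of the microRNA genes was −1.29, and 39 of 40 still passed.

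Of the leukocyte markers 1 of 10 rose and 1 fell (9.47 to 9.72 in knockout and 9.11 to 10.03 in control arrays). The one that fell was Lyz2 (−0.93, SE 0.086), the brightest of the 10, at 12.22 in knockout and 13.15 in control arrays. Which cells carried Lyz2 was not measured. Of 10 listed erythroid markers 5 were measured, none of them a globin gene. Their mean was 6.90 to 7.09 in knockout and 6.80 to 6.86 in control arrays. Epor rose (0.33, SE 0.067) and the other 4 were not called, so this mean describes few genes. Among 8 measured neuroendocrine markers 1 rose and 1, Dlk1 itself, fell (7.26 to 7.33 and 7.37 to 7.46). The erythroid mean was thus higher in knockout arrays and the neuroendocrine mean lower, both without overlap between the groups. However, the neuroendocrine mean includes Dlk1, which bounds the interval, so it is no separate measure of those cells. No other neuroendocrine marker was called lower, and the one that rose was Uchl1 (0.45). The mean of 10 epithelial markers was 11.31 to 11.45 in knockout and 11.31 to 11.47 in control arrays, with members called both ways. Krt19 and Krt8 rose (0.62 and 0.27), Elf3, an epithelial transcription factor, fell (−0.72, adjusted p = 3.34e-04), and 7 were not called. Which cells carried the microRNA transcripts was not measured, and the part of these cell types in the result was not tested beyond the covariate.

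**Figure D4:**
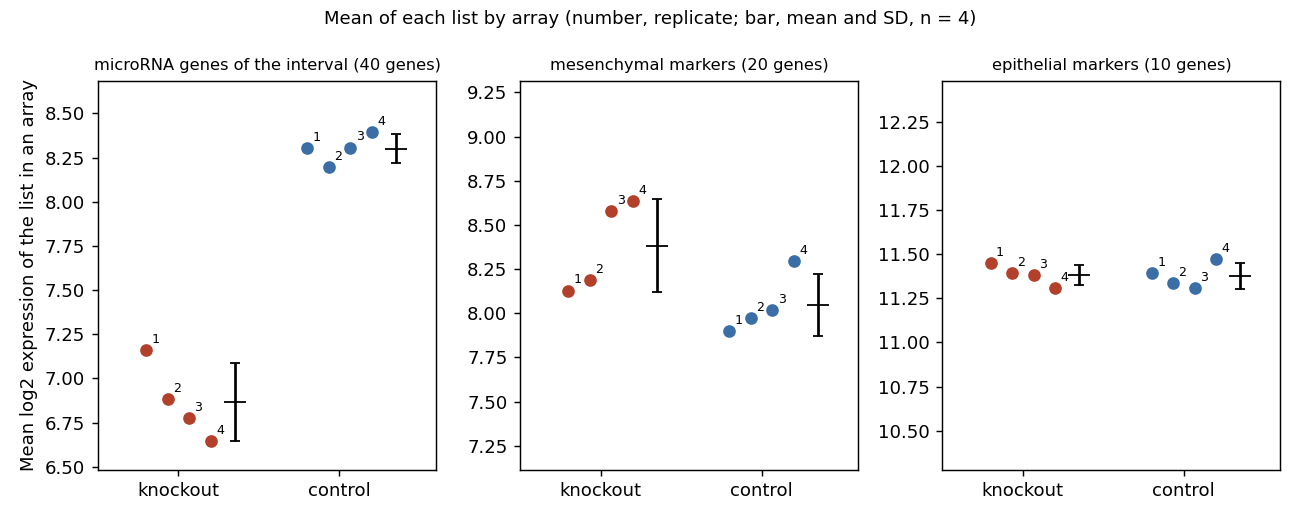
Mean log2 expression (y axis) of the 40 microRNA genes, of 20 mesenchymal markers and of 10 epithelial markers in each array, with the replicate number beside each point and the mean and SD (n = 4) as bars, on axes of equal length. The microRNA genes lie at 6.64 to 7.16 in knockout and 8.20 to 8.40 in control arrays, while the epithelial markers overlap.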

How the data were processed

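RNA of Epcam(+) fetal lung cells was labelled with biotin by Affymetrix protocols, per the labels' protocols. The authors deposited 1 table of log2 values for 35556 probe sets in 8 arrays. The log2 scale was read from the values (2.89 to 13.95), and neither the normalization nor the build behind it is given in the sources used here. Symbols came from GEO's platform annotation: 21789 probe sets have 1 symbol, 1621 several and 12146 none here. By gene number 21698 of those with 1 symbol matched RefSeq GRCm38.p6, which changed 0 symbols.

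Genes (19938, the brightest single-symbol probe set of each) were fitted in R 4.3.3 with limma 3.58.1 (lmFit, then eBayes), knockout against control without covariates, and p-values were adjusted over all genes. Errors are limma's SE for differences and SD over 4 arrays for means. Depth does not apply to arrays. Probe sequences were not used here.

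Every microRNA gene of the interval is named. Array values are given for the 6 with the smallest p, the 3 largest and 3 smallest differences, the 3 brightest, and those sharing a seed with them, and for the pair with the other shared seed; Mir127 was added after its values were seen. The interval, the lists and the alternatives were chosen with earlier results of these data known.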

Additional observations from a re-analysis of the deposited data

Results flagged for a closer look

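In 4 of 80 groups of 4 arrays, 1 array stood far from the other 3, by Dixon's gap ratio. Chance flags about 1 group in 20. All 4 are control groups. Mir136 read 7.80 in control replicate 4, above 7.12 to 7.15 in the others. Mir543 also read high there, 7.83 beside 7.33 to 7.38. In control replicate 2, Mir411 read 7.97, below 8.39 to 8.47, and Mir667 read 9.20, below 9.51 to 9.57. Control replicate 2 is the array that lay just below a knockout array in Mir667. Without control replicate 4 or without control replicate 2, the calls of these 4 genes were kept.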

How the results depend on the processing

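Of the 40 microRNA genes, 39 passed and Mir666 did not in 16 of 17 alternatives; in the other, which kept only genes above the median level, 20 were left and 19 passed. Leaving out single arrays kept 39 calls, and the median difference lay between −1.54 and −1.38. Over all alternatives it lay between −1.54 and −1.29. The replicate block left the median at −1.45 and changed no call among the 40. Equal numbers share only a number here: deviations of equally numbered arrays correlated at 0.06, 0.10, −0.08 and 0.04. Calls in the other lists rested on few genes. In the interval and flank list, 2 rose with the mean of a gene's probe sets and with Xist as a covariate, against 1 in the main setting, and 0 when knockout replicates 1 and 4 were both left out or the mesenchymal covariate was used. In the processing list, 1 rather than 2 rose with the replicate block, with arrays centred on their medians, over all probe sets and with either covariate. Without single arrays 1 to 2 rose and 0 to 1 fell there. In the imprint list, 1 rather than 2 fell with the replicate block, over all probe sets, when knockout replicates 1 and 4 were both left out and with either covariate, and 1 to 2 without single arrays. The cause was not tested. Stk4 missed the threshold without knockout replicate 3 (adjusted p = 0.0592).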

Other observations

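A second run of microRNA genes, the Mir17 cluster, known for promoting cell growth, moved the same way by less, and it was picked after its values were seen. Mir19b-1 averaged 6.20 ± 0.19 in knockout and 7.10 ± 0.29 in control arrays (SD, n = 4 each), a difference of −0.90 (limma's adjusted p = 0.00102), the largest among microRNA genes outside the interval. Mir20a (−0.58), Mir18 (−0.50) and Mir19a (−0.47) fell too, while Mir17 did not pass (−0.29, SE 0.12, adjusted p = 0.128). The 3 microRNA genes outside the interval that rose were Mir653 (0.43, SE 0.11), Mir1839 (0.41, SE 0.091) and Mir15a (0.38, SE 0.10).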
